A study of Bos taurus with 3 samples.

Results

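Of the 793 mature miRNAs counted, 9 were followed that are described in human or mouse as intronic miRNAs of neural or neuroendocrine host genes: miR-95, miR-128, miR-139, miR-153, miR-218, miR-326, miR-338, miR-488 and miR-504. The rule takes them by name and uses no count, although it was written with earlier results of these data known, and they held 12 of the 919 precursor rows of the deposited table. RNA came from large dense-core vesicles, the organelles that store catecholamines and peptides, which had been isolated from chromaffin cells of the adrenal medulla of slaughtered cattle (Bos taurus). The libraries were 1 labelled biological replicate and 2 labelled technical replicates, and no treatment, genotype, sex or age separates them in the labels. The technical pair was treated as 1 preparation, so that a mean ± SD covers n = 2 preparations. No whole-cell library was analysed here, so the values describe the vesicle preparations and show no enrichment over the cell.

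An intronic miRNA is transcribed as part of its host gene's primary transcript, or from a promoter of its own within the intron, and is then cut out as a hairpin by Drosha. Its level is therefore often used as a readout of host transcription, although processing and decay of the mature strand also set it. Chromaffin cells derive from the neural crest and share many transcripts with sympathetic neurons, which is why such hosts are of interest in them.

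The names of the host genes were read from the RefSeq gene table of assembly ARS-UCD2.0, in which all 12 hairpins lay within the span of a protein-coding gene. The table gives no strand and no exons, so that it does not show by itself that a hairpin is intronic. The hairpin of miR-153 has 2 copies, in PTPRN and PTPRN2, which encode transmembrane proteins of the dense-core vesicle itself. The copies of miR-128 lay in R3HDM1 and in ARPP21, the latter a cAMP-regulated phosphoprotein of striatal neurons. Those of miR-218 lay in SLIT2 and SLIT3, which encode secreted axon guidance ligands. Single hairpins lay in PDE2A (miR-139, a phosphodiesterase of cAMP and cGMP), ARRB1 (miR-326, beta-arrestin 1, which desensitises G-protein-coupled receptors), AATK (miR-338, a kinase of the nervous system) and ASTN1 (miR-488, astrotactin 1, which guides migrating neurons). The hairpin of miR-504 lay within LOC112445031, a locus without a gene name in that table. In human the hairpin of miR-504 lies in FGF13, an intracellular fibroblast growth factor homologue that binds sodium channels. The same table has FGF13 on an unplaced sequence, so that this host was not checked in cattle. A further pair of hairpins in these hosts, miR-3065 in AATK and miR-2285ct in SLIT3, were among the RefSeq genes but had no row in the deposited counts.

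The vesicle libraries held 6708654 counts in the biological replicate and 5546771 and 6251664 in technical replicates 1 and 2, after each mature miRNA was counted once. CPM are counts scaled to these totals, and a count of 0 would allow up to 0.447 to 0.541 CPM. Intervals below cover counting error only. The endocrine miRNAs miR-375 and miR-7, used as chromaffin markers, together held 47.3% of counts in the biological replicate and 44.1% and 42.8% in the technical replicates. Of the neuronal markers, miR-124 was scarce, with 10 counts in the biological replicate and 13 and 16 in the technical replicates for each of its rows. miR-9-5p had 608 CPM in the biological replicate and 490 and 550 CPM in the technical replicates. Each of the 9 miRNAs was counted at least 121 times in every library.

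Together the 9 miRNAs took 2.61% of all counts in the biological replicate (exact Clopper-Pearson 95% interval 2.595 to 2.620%), and 2.13% (2.115 to 2.139%) and 2.33% (2.318 to 2.341%) in technical replicates 1 and 2. The mean share was 2.42% ± 0.268 (SD, n = 2). One miRNA made up most of it: miR-504 held 76.2% of the 9 miRNAs' counts in the biological replicate and 77.5% and 79.9% in the technical replicates. Without miR-504 the other 8 shared 0.622% of all counts in the biological replicate and 0.479% and 0.469% in the technical replicates. The highest of the 9 stood 846 times above the lowest by mean CPM. Levels of different miRNAs are read counts of strands of similar length, and any preference of adapter ligation for particular ends is contained in them.

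**Figure D1:**
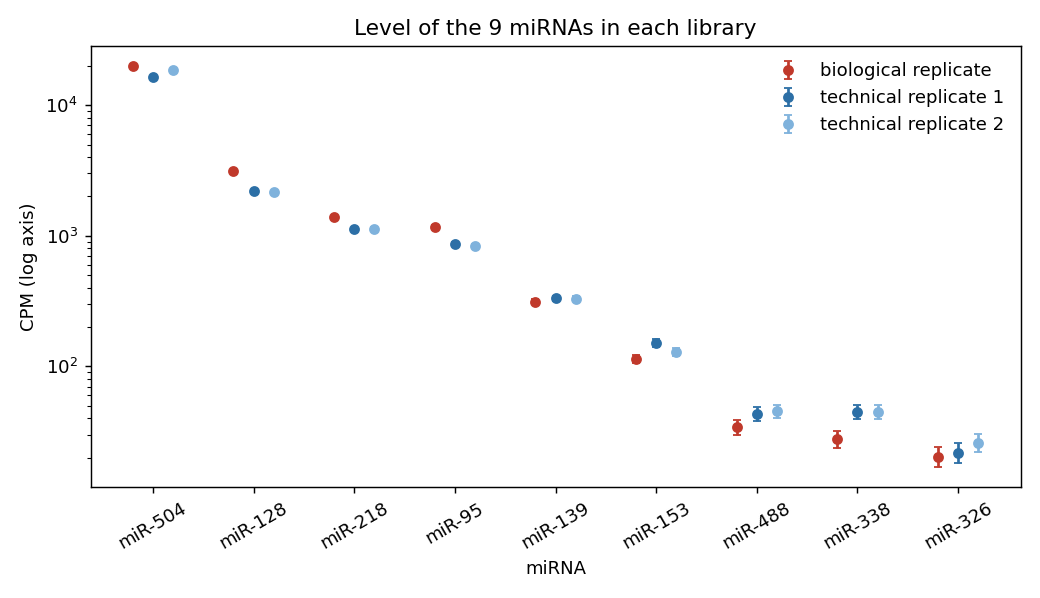
Level of each miRNA in CPM (log axis) in the biological replicate and technical replicates 1 and 2, with exact 95% counting intervals, which are hidden by the points for the abundant miRNAs. miR-504 lies between 16484 and 19859 CPM and miR-326 between 20.3 and 26.1 CPM.

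**Figure D2:**
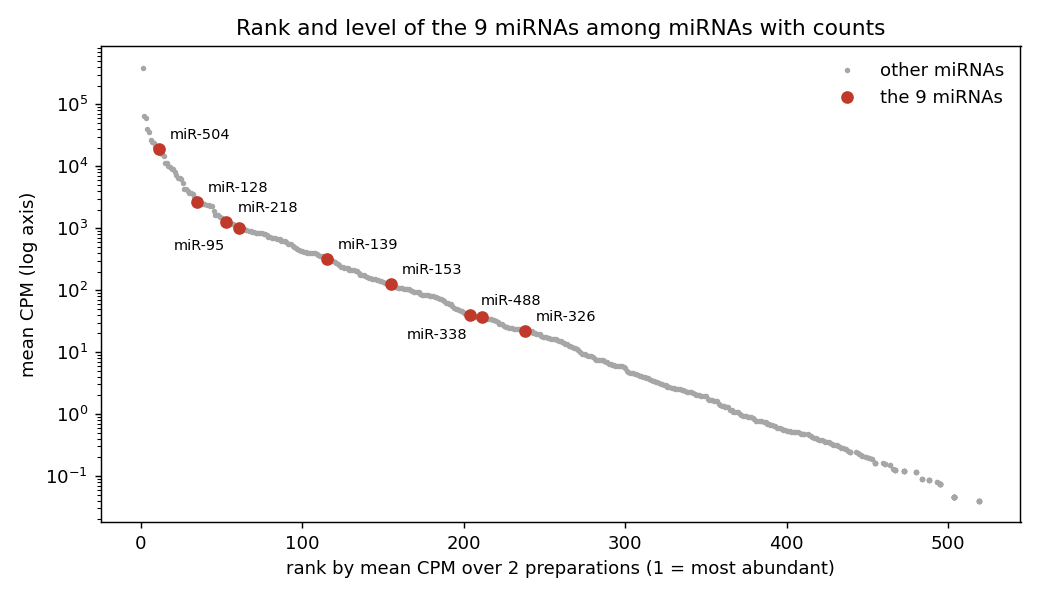
Mean CPM over 2 preparations (log axis) against abundance rank for all miRNAs with counts, with the 9 miRNAs in red. They are spread from rank 11 (miR-504) to rank 238 (miR-326) and do not stand together.

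miR-504 was the most abundant of the 9 and stood at rank 11 of all miRNAs by mean CPM. It had 19859 CPM in the biological replicate and 16484 and 18601 CPM in technical replicates 1 and 2, a mean share of 1.87% ± 0.164 (SD, n = 2). The biological library was the highest, but the technical pair lay nearly as far apart, by a log2 ratio of 0.17. miR-504 rose in the biological replicate by a log2 fold change of 0.36 ± 0.12 (SE; edgeR quasi-likelihood test with Benjamini-Hochberg adjustment over all 367 tested miRNAs, adjusted p = 0.0095). This call was lost under scaling by library totals, under DESeq2 size factors in edgeR, and in a fit restricted to means of at least 100 CPM, with adjusted p-values of 0.23, 0.054 and 0.14. Over the 8 tested settings its adjusted p ranged from 0.0028 to 0.23. Among 161 other miRNAs averaging at least 100 CPM, miR-495, let-7i and miR-9-5p had the profile over the 3 libraries closest to that of miR-504, at distances of 0.0051, 0.013 and 0.038 on the centred log2 scale. With 3 libraries this likeness is only a description.

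miR-128, a brain-enriched miRNA that in mice restrains the excitability of neurons, came second of the 9 and was at rank 35. Its level was 3147 CPM in the biological replicate and 2205 and 2147 CPM in technical replicates 1 and 2. The biological library thus stood well above the technical pair, which differed by a log2 ratio of only -0.04. miR-128 rose by 0.71 ± 0.09 on the log2 scale (SE; edgeR, adjusted p = 1.1e-11), the largest fold change among the 9. Its adjusted p reached 0.0090 with library totals, and was 0.0045 with DESeq2 size factors in edgeR. It passed in all 8 tested settings, with log2 fold changes between 0.53 and 0.76 including those with a technical library left out.

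The rows of its 2 hairpins were nearly alike. The R3HDM1 hairpin had 21113 counts in the biological replicate and 12233 and 13423 in the technical replicates, and the ARPP21 hairpin had 19979 in the biological replicate and 11611 and 12718 in the technical replicates. The ARPP21 row held 94.6% of the R3HDM1 row in the biological replicate and 94.9% and 94.7% in the technical replicates. The remainder of 1134 counts in the biological replicate and 622 and 705 in the technical replicates appeared at R3HDM1 beyond what the ARPP21 row held. Rows this close would arise if most reads were counted at both hairpins, and reads shared in this way cannot be assigned to R3HDM1 or to ARPP21. Whether the remainder came from R3HDM1 was not tested.

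miR-218, which is abundant in motor neurons and is known to lower the SLIT receptor ROBO1 in human cells, had 1384 CPM in the biological replicate and 1118 and 1134 CPM in technical replicates 1 and 2. All 3 libraries lay above 1000 CPM, the technical pair within a log2 ratio of 0.02. It rose by 0.48 ± 0.09 (SE; edgeR, adjusted p = 4.2e-06) and passed in all 8 tested settings, the weakest being library totals with an adjusted p of 0.049. The SLIT2 and SLIT3 rows held 9285 counts each in the biological replicate. They held 6199 and 6200 counts in technical replicate 1, and 7092 and 7091 in technical replicate 2. The 2 hosts can therefore not be told apart.

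miR-95 had 1175 CPM in the biological replicate and 870 and 837 CPM in technical replicates 1 and 2. It was higher in the biological library than in either technical library by more than the technical pair differed, and rose by 0.64 ± 0.09 (SE; edgeR, adjusted p = 5.1e-10). All 8 tested settings kept it past the threshold, with adjusted p-values up to 0.017. By mean CPM miR-95 followed miR-218 closely, at 1014 ± 227 CPM against 1255 ± 182 CPM (SD, n = 2). These ranges overlapped, although miR-218 was the higher of the pair in all 3 libraries. This closeness depends on how rows are handled: with the precursor rows of a miRNA summed, the mean share of miR-95 was 0.0771% and that of miR-218 was 0.191%, against 0.101% and 0.126% with a single row each.

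The miRNA whose hosts make proteins of the vesicle membrane was not among the abundant ones. miR-153, which has been reported to repress alpha-synuclein in mammalian neurons, had 114 CPM in the biological replicate and 151 and 129 CPM in technical replicates 1 and 2. The technical libraries were further apart (log2 ratio of -0.23) than technical replicate 2 was from the biological one. Its log2 fold change of -0.11 ± 0.12 (SE) did not pass (edgeR, adjusted p = 0.56), and with technical replicate 1 left out the value became 0.03. The PTPRN and PTPRN2 rows differed by 1 count in each library, with 767 and 768 counts in the biological replicate, 835 and 836 in technical replicate 1 and 804 and 805 in technical replicate 2. Neither host can be assigned from these counts.

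Hosts of intracellular signalling carry miR-139, miR-326 and miR-338. For miR-139 of PDE2A the level was 313 CPM in the biological replicate and 333 and 329 CPM in technical replicates 1 and 2. The log2 fold change of 0.10 ± 0.10 (SE) did not pass (edgeR, adjusted p = 0.50), and its sign turned to -0.08 with library totals and to -0.05 in the fit restricted to means of at least 100 CPM. miR-326 of ARRB1 was the scarcest of the 9, with 136 counts (20.3 CPM, exact interval 17.0 to 24.0) in the biological replicate and 121 and 163 counts (21.8 and 26.1 CPM) in the technical replicates. At -0.06 ± 0.19 (SE; edgeR, adjusted p = 0.84) it did not pass, and the technical pair differed by a log2 ratio of 0.26, the widest of the 9.

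miR-338, known for promoting the maturation of oligodendrocytes in mice, was the 1 miRNA of the 9 that fell. It had 186 counts (27.7 CPM, exact interval 23.9 to 32.0) in the biological replicate. In technical replicates 1 and 2 it had 248 and 279 counts, or 44.7 and 44.6 CPM, so that the technical pair was level and the biological library lay below both of their intervals. Its log2 fold change was -0.51 ± 0.17 (SE; edgeR, adjusted p = 0.0094). The call was lost in DESeq2, with an adjusted p of 0.20, and its adjusted p ranged from 0.0012 to 0.20 over 7 tested settings. miR-488 of ASTN1 had 34.3 CPM in the biological replicate and 43.4 and 45.3 CPM in technical replicates 1 and 2, all lower than any value of miR-153. Its log2 fold change of -0.19 ± 0.16 (SE) did not pass (edgeR, adjusted p = 0.40). By mean CPM, miR-488 and miR-338 (39.3 ± 7.12 and 36.2 ± 12.0 CPM, SD, n = 2) overlapped, as did miR-338 and miR-326 (22.1 ± 2.60 CPM), while each other pair of neighbours in the order except miR-218 and miR-95 was separated by more than these SDs.

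**Figure D3:**
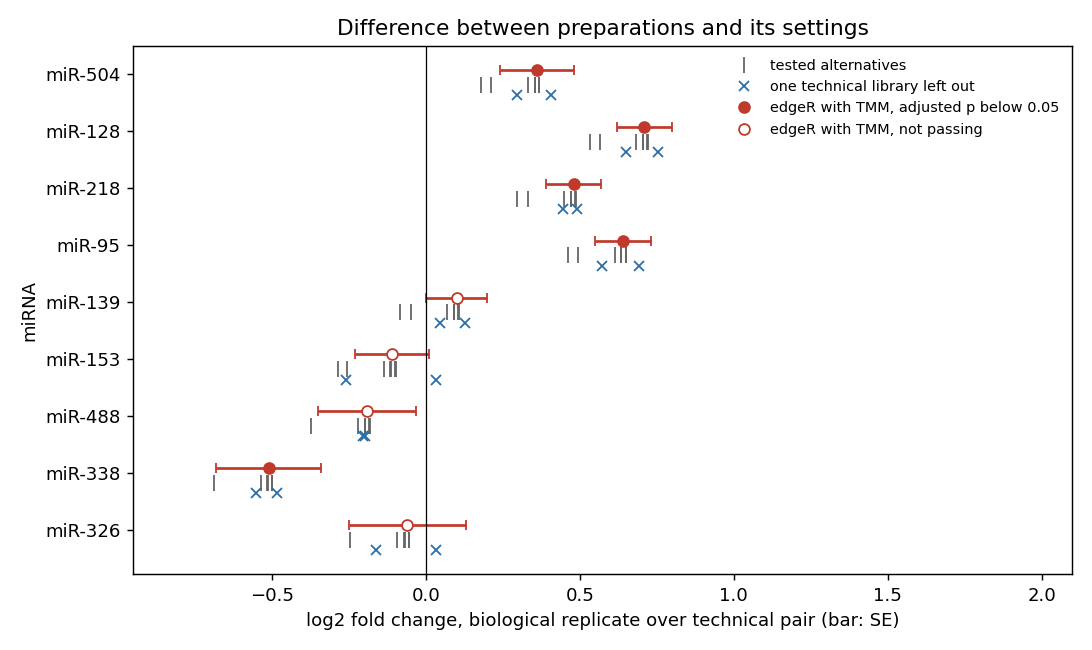
Log2 fold change of the biological replicate over the technical pair for each miRNA, with SE bars (edgeR with TMM). Filled circles passed at an adjusted p below 0.05, ticks are the tested alternatives and crosses the ratios with 1 technical library left out; the 4 most abundant miRNAs lie right of 0 and miR-338 left of it at -0.51.

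Of the 9 miRNAs, 4 rose in the biological replicate (miR-504, miR-128, miR-218 and miR-95), 1 fell (miR-338) and 4 did not pass. Over all 367 tested miRNAs 37.9% passed, 17.7% being higher and 20.2% lower. All 9 had been tested, since each had at least 10 counts in every library. The median log2 fold change was 0.10 for the 9 and 0.01 over all tested. The 4 that rose were those averaging at least 1000 CPM, and none of the other 5 was called higher. Among the 58 other miRNAs of that level, 15 were higher (25.9%) and 10 were lower, with a median log2 fold change of 0.11. The mean behind this cut includes the biological library, so the level is not independent of the calls. miR-95 averaged 853 CPM in the technical pair and reached a mean of 1014 CPM only through its 1175 CPM in the biological replicate. The biological library lay outside the technical pair for all 9 miRNAs by CPM, above for 4 and below for 5. Of all tested miRNAs 83.7% lay outside, 24.5% above and 59.1% below. The size of an adjusted p depends on how far edgeR pools the spread over miRNAs: the prior degrees of freedom were estimated as infinite here, but as 4.30 with library totals and 5.04 with DESeq2 size factors. The spread in this test comes from the technical pair alone, with 1 residual degree of freedom, and a p-value here says nothing about animals beyond these 3 libraries. More vesicles of a kind and more RNA per vesicle cannot be told apart in such preparations.

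TMM scaling raised every log2 fold change by 0.18 relative to library totals, and with library totals 3 of the 9 were higher and 1 was lower. Under that scaling 30% of all tested miRNAs passed, 6.54% being higher and 23.4% lower. Ratios within a library do not depend on that choice. For each 1000 counts of miR-504, miR-128 had 158 counts in the biological replicate and 134 and 115 in technical replicates 1 and 2. miR-338 had 1.40 per 1000 in the biological replicate and 2.71 and 2.40 in the technical replicates, and miR-153 had 5.76 in the biological replicate, against 9.14 and 6.92 in the technical replicates. miR-218 had 69.7 per 1000 in the biological replicate and 67.8 and 61.0 in the technical replicates, and miR-95 had 59.1, against 52.7 and 45.0. Relative to miR-504, miR-128, miR-218 and miR-95 were higher in the biological library than in both technical libraries, and the 5 scarcer miRNAs were lower than in both. For miR-218, miR-95, miR-139 and miR-153 the technical pair lay further apart than the biological library did from the nearer technical one.

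Other intronic miRNAs were set beside these. A list of 11 names with neural or endocrine hosts in human or mouse gave 12 mature miRNAs, of which 3 (miR-448, miR-489 and miR-653) were at 0 in every library and 6 were tested. Of the 6, miR-346 was higher (log2 fold change of 0.56 ± 0.24, SE), and miR-204, miR-592 and miR-885 were lower, at -0.52, -0.86 and -1.26 (edgeR, adjusted p between 0.0008 and 0.050). Their median was -0.22. Some of the 6 were scarce: miR-885 had 11 counts in the biological replicate and 24 and 29 in the technical replicates. miR-190a had 17 counts in the biological replicate and 14 and 12 in the technical replicates. The median level over all 12 was 1.31 CPM, against 322 CPM for the 9 miRNAs. The medians of log2 fold change therefore compare miRNAs of unlike abundance. The most abundant of the 6, miR-149-5p of the GPC1 host, had 391 CPM in the biological replicate and 388 and 447 CPM in technical replicates 1 and 2, and did not pass. Among 20 tested miRNAs of broadly expressed hosts, 4 were higher (miR-25, miR-93, miR-151-3p and miR-744) and 3 were lower (miR-140, miR-342 and miR-652), with a median of 0.10. In RefSeq, 506 of the 793 mature miRNAs had their hairpin within the span of a protein-coding gene. Of the 192 of these that were tested and are not among the 9, 15.1% were higher and 20.3% lower, with a median of 0.04.

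**Figure D4:**
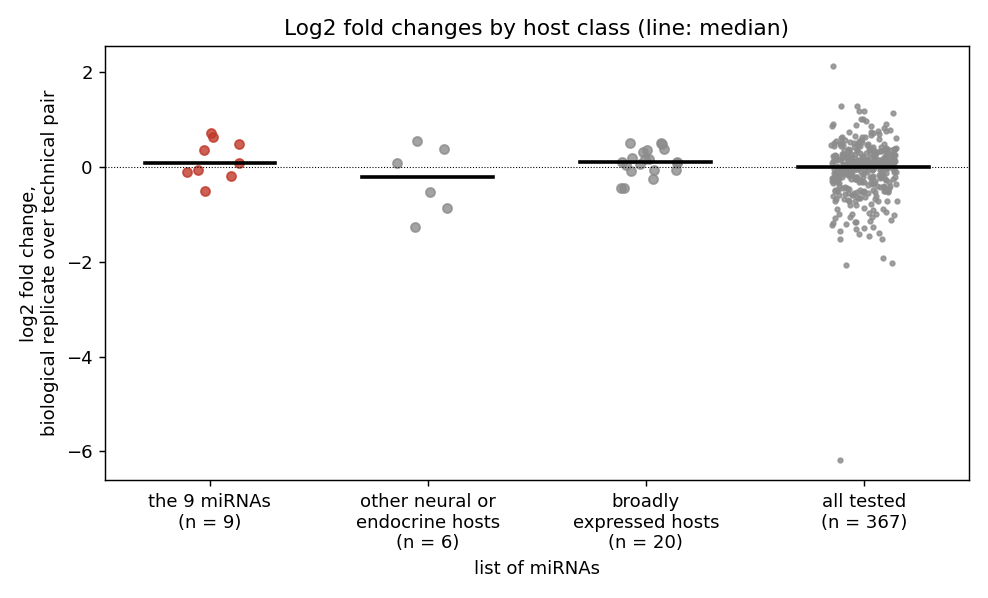
Log2 fold change of the biological replicate over the technical pair for tested miRNAs of each host class, 1 point a miRNA, with the median as a line. The medians are 0.10 for the 9 miRNAs, -0.22 for 6 miRNAs of other neural or endocrine hosts, 0.10 for 20 of broadly expressed hosts and 0.01 for all 367. The classes differ in abundance: the median level was 322 CPM for the 9 miRNAs and 1.31 CPM over all 12 miRNAs of other neural or endocrine hosts.

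Markers of other cells were compared between the preparations as well, with few miRNAs in each list. Over all 367 tested miRNAs, 17.7% were higher and 20.2% lower. The smooth muscle and fibroblast list (miR-143, miR-145, miR-199a, miR-199b and miR-214) held 1.02% of counts in the biological replicate and 1.68% and 1.89% in the technical replicates, and 5 of its 6 tested members were lower. The endothelial miR-126 arms held 0.113% in the biological replicate, against 0.182% and 0.189% in the technical replicates, and both were lower. Leukocyte markers held 0.00507% in the biological replicate, against 0.00784% and 0.00755% in the technical replicates, and 1 of 4 tested was lower. In the erythrocyte list, at 0.110% in the biological replicate and 0.0898% and 0.0837% in the technical replicates, miR-486 was higher and miR-451 was not called. The epithelial list held 0.00322% in the biological replicate and 0.00288% and 0.00242% in the technical replicates, and 1 of its 3 tested members, miR-200c, was higher (log2 fold change of 0.52; edgeR, adjusted p = 0.015). For hepatocytes, miR-122 had 1 count in the biological replicate and 6 in each technical replicate, too few to be tested. Of the neuronal markers both arms of miR-9 were higher, and the miR-124 rows did not pass. The part of these cells in the differences of the 9 miRNAs was not tested.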

How the data were processed

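Libraries were made with a NEBNext small RNA kit, per the labels' protocols. The count table deposited by the authors holds raw read counts for each mature miRNA on each precursor. The submitters' processing notes name the build UMD3.1 and edgeR. Aligner, counting tool and miRBase version were not given in the sources used here. Deposited CPM values equal counts over the column total, in which miRNAs with several hairpins count more than once, so the CPM deposited by the authors for miR-504 are 15237, 12473 and 13855 in the biological replicate and technical replicates 1 and 2. The log2 values deposited by the authors (459 rows) served only as an alternative.

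Members were matched by name without prefix and identifier. Each mature miRNA was represented by its precursor row with the most counts, and CPM were recomputed over these rows. In edgeR 4.0.16 under R 4.3.3 (TMM, quasi-likelihood, Benjamini-Hochberg at 0.05) the biological library was tested against both technical libraries, using miRNAs that reached 10 counts in any library. The fit was also run on simulated counts drawn with the spread fitted to these same libraries. Such counts cannot show whether the p-values are well calibrated. SEs are the absolute log2 fold change over the root of F. Alternatives used DESeq2 1.42.0, other scaling, filters and row handling. Shares have exact intervals from scipy 1.17.1. Hosts were read from RefSeq for 798 of 808 hairpins, and the host of 1 member hairpin is not reported here. All 9 members are named, and the comparison lists and the likeness rule were chosen, like the members, with earlier results of these data known. None of the 9 names carries an arm suffix, so no ratio of 5p to 3p arms was computed.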

Additional observations from a re-analysis of the deposited data

How the results depend on the processing

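No paired analysis was possible because the labels link no technical library to the biological one and the biological group holds 1 library. Of 367 tested miRNAs, 139 were called, against 86 in DESeq2 (of 288 with an adjusted p) and 70 of 167 in a fit restricted to means of at least 100 CPM, and the number was within 1.5 times of 139 in the other 5 settings. Over all tested miRNAs, 65 of 367 were called higher in the main edgeR fit with TMM, 24 of 367 with library totals and 26 of 167 in the fit of at least 100 CPM. Among the 9 miRNAs the number called higher was 3 or 4 in every tested setting, although only 6 of them were tested in the fit of at least 100 CPM. The number called lower was 1 except in DESeq2 (0 by adjusted p, 0 at an unadjusted p below 0.05) and in the fit of at least 100 CPM (0, because miR-338 was not in it; 0 at an unadjusted p below 0.05 in edgeR). The direction of miR-139, which passed in no setting, turned to -0.083 with library totals and to -0.049 in the fit of at least 100 CPM. That of miR-153 turned to 0.034 without technical replicate 1, and that of miR-326 to 0.032 without technical replicate 2. Neither miR-153 nor miR-326 passed in any tested setting. The summed share of the 9 was 2.13% with precursor rows summed and 4.001% without miR-375 in the total, and lay between 2.23% and 2.47% with a library left out. With a technical library left out no residual degree of freedom remains, so only log2 ratios were computed; the 5 called miRNAs kept their direction. Depth limits miR-326, miR-338 and miR-488, at 121 to 283 counts a library.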
